A study of Mus musculus with 3 samples.

Results

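The genes described here are the BTG and TOB family members Btg1, Btg2, Btg3, Tob1 and Tob2, the poly(A) binding protein gene Pabpc1, and 4 genes of the CCR4-NOT deadenylase, Cnot1, Cnot7, Cnot8 and Cnot6l. These 10 genes were chosen by name and matched by identifier among the 55536 genes of the tables, and all 10 had counts in every library. Total RNA was sequenced from CD3 T cells of the spleen of virgin adult female mice aged 66 days, of the strain B6CASTF1/J, the F1 offspring of C57BL/6 mothers and CAST Eij fathers. The labels name no treatment, so the 3 libraries form 1 group and there is no control. Each library was made from 300 ng of RNA with ERCC spike-in transcripts. The labels number the libraries as biological replicates, while the biosamples share 1 donor record. The spread given by SDs and p-values is therefore that of these samples and may be technical.

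BTG and TOB proteins share an N-terminal domain that binds the paralogous CCR4-NOT nucleases encoded by Cnot7 and Cnot8. Through this contact they bring the complex to messages whose poly(A) tails are coated by Pabpc1 protein, and the tails are then shortened. In mice, T cells that lack both Btg1 and Btg2 are known to lose quiescence, the resting state of a naive T cell that is not dividing.

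The libraries held 16.88 M, 14.99 M and 16.2 M estimated counts in genes (replicates 1, 2 and 3), and no pair agreed within sampling noise (chi-square per degree of freedom 4.20 to 5.25). All 10 T-cell marker genes exceeded 10 TPM in every library (TPM, transcripts per M, is a count divided by effective length and scaled to library size), with a summed level of 2739 to 2974 TPM. Summed levels were 11.75 to 20.5 TPM over 8 B-cell genes, 27.8 to 37.2 TPM over 8 monocyte and macrophage genes, 19.3 to 24.8 TPM over 4 natural killer genes, 5.69 to 6.82 TPM over 6 neutrophil genes, 42.6 to 96.9 TPM over 6 erythroid genes and 0.210 to 1.32 TPM over 4 platelet genes. In such bulk RNA, fewer cells of a type and less RNA per cell cannot be told apart.

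How far reads could be assigned to single members was read from the coding sequences of the GENCODE M21 transcripts (mm10). Btg1 and Btg2 were identical at 67.9% of 477 aligned coding bases, and their longest exact run was 17 bases. The deposited effective lengths imply fragments of 101 bases, and no run of that length was shared between any members. The runs below are shown to make that separation visible, 5′ to 3′ on the coding strand, with the longest shared run of each pair in capitals. They lie at chr10:96618466-96618502 (+) for Btg1 and chr1:134077477-134077513 (-) for Btg2, at chr11:94214075-94214110 (+) for Tob1 and chr15:81851293-81851328 (-) for Tob2, and across an intron at chr8:40499421-40500772 (-) for Cnot7 and chr11:58113193-58113968 (+) for Cnot8.
Btg1: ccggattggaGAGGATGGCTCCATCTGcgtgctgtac
Btg2: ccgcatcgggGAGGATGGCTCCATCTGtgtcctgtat
Tob1: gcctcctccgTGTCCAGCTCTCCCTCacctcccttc
Tob2: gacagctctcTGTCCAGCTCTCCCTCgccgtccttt
Cnot7: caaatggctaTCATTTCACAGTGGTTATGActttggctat
Cnot8: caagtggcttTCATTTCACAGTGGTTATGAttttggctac
Identity was 69.7% for Tob1 and Tob2, with a longest run of 16 bases, and 72.4% for Cnot7 and Cnot8, with a longest run of 20 bases.

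A processed pseudogene carries the coding sequence of Btg3, and the pair is shown because it limits what can be said of Btg3. Gm7334 (chr17:50698688-50699443, +) is 756 bases long and matched the coding part of Btg3 at all 756 bases, with 0 substitutions and only the stop codon left out. The first 40 bases of both are shown, with the start codon in capitals, from chr16:78373378-78373417 (-) for Btg3 and chr17:50698688-50698727 (+) for Gm7334.
Btg3: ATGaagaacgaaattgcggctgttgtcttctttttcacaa
Gm7334: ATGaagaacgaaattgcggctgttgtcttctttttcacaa
A fragment from inside the coding part therefore cannot be given to one of them by sequence. Of the distinct 101-base stretches in Btg3 transcripts, 16.8% also occurred in Gm7334. Smaller shares of other members occurred in other processed pseudogenes, 3.91% of Cnot8 in Gm18860, 3.41% of Cnot1 in Gm6158, 2.11% of Pabpc1 in Gm16580 and 0.502% of Btg1 in Gm14519, and none was found for Btg2, Tob1, Tob2, Cnot7 or Cnot6l.

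Btg1 was the most abundant BTG or TOB gene in every library. Btg1 (ENSMUSG00000036478.8, chr10:96617006-96622809), an antiproliferative adaptor, had 455, 459 and 429 TPM in replicates 1, 2 and 3, from 25805, 23265 and 23782 estimated counts. The replicates lay close together, the highest 1.07 times the lowest, and the mean of 448 ± 16.0 TPM (SD, n = 3) ranked 107th among 22028 protein-coding genes. Btg1 alone took 0.152% of all counts. Measured by Euclidean distance of log2(TPM + 1) over the 3 libraries, the protein-coding genes with the most similar values were Ptma (0.050), Rps23 (0.080) and Clk1 (0.11).

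Btg2 (ENSMUSG00000020423.6, chr1:134075170-134079120), the closest paralog of Btg1, was lower. It had 64.2, 68.4 and 64.1 TPM in replicates 1, 2 and 3, a mean of 65.6 ± 2.46 TPM (SD, n = 3) at rank 857. The values most like it over the libraries were those of Tmpo (0.048), Gabarap (0.048) and Tgfbr2 (0.053). Btg1 made up 77.3% ± 1.17 of the summed TPM of the 5 BTG and TOB genes and Btg2 11.3% ± 0.224, so that both together held 88.7% ± 1.03 (SD, n = 3 each). Btg4, the remaining mouse family member and known from oocytes, was listed at 0 in all libraries, where 0 counts allow a true mean of up to 3 counts.

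Tob1 and Tob2, the larger family members, which carry motifs that bind Pabpc1 protein, were close to each other. Tob2 (ENSMUSG00000048546.8, chr15:81848272-81858796) had 23.95, 30.2 and 33.2 TPM in replicates 1, 2 and 3, with a mean of 29.1 ± 4.72 TPM (SD, n = 3). Tob1 (ENSMUSG00000037573.5, chr11:94211454-94215495) had 22.9, 26.9 and 27.9 TPM in the same libraries, with a mean of 25.9 ± 2.64 TPM (SD, n = 3). Their ranges overlapped, and replicate 1 was the lowest library for both.

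Btg3 (ENSMUSG00000022863.15, chr16:78332637-78377192), a family member with a role in cell-cycle arrest, had the lowest mean level. It had 13.3, 9.50 and 8.97 TPM in replicates 1, 2 and 3, a mean of 10.6 ± 2.36 TPM (SD, n = 3), with replicate 1 the highest. These values rested on 325, 211 and 208 estimated counts, while the pseudogene Gm7334 was given 219.7, 162.8 and 218.3. The 2 genes summed to 545, 374 and 426 counts, and replicate 1 was again highest. The deposited posterior SD of the Btg3 count, a measure of ambiguous assignment, reached 7.81% of the count, against 0.248% or less for the other 9 genes. In a second deposited quantification Btg3 had 30.0, 20.2 and 19.5 TPM, a log2 difference of 1.06 from the first. All 10 genes were higher in the second quantification than in the first, where the median over genes at 1 TPM or more was also higher, by 0.33 on the log2 scale.

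Pabpc1, the main cytoplasmic poly(A) binding protein, was the highest of the 10 by TPM over all its entries. Pabpc1 (ENSMUSG00000022283.15, chr15:36595661-36609668) had 609, 657 and 625 TPM in replicates 1, 2 and 3, a mean of 631 ± 24.35 TPM (SD, n = 3) at rank 76. It held 95.5% ± 0.309 of the TPM of the cytoplasmic poly(A) binding protein genes. Its paralog Pabpc4 had 26.3, 27.45 and 29.9 TPM, and Pabpc2, Pabpc4l, Pabpc5 and Pabpc6 were listed at 0 in every library.

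Cnot1, the scaffold on which the CCR4-NOT complex assembles, was the highest of the 4 complex genes by TPM over all its entries. Cnot1 (ENSMUSG00000036550.16, chr8:95719451-95807464) had 108.9, 104.2 and 103.4 TPM in replicates 1, 2 and 3, a mean of 105.5 ± 2.98 TPM (SD, n = 3). The nuclease gene Cnot6l (ENSMUSG00000034724.18, chr5:96070333-96164171) followed with 76.4, 76.9 and 81.5 TPM, a mean of 78.3 ± 2.845 TPM (SD, n = 3). Both varied little between the libraries, by a factor of at most 1.07.

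The 2 nuclease genes whose products contact the BTG and TOB proteins were lower. Cnot7 (ENSMUSG00000031601.16, chr8:40492540-40515847) had 46.9, 46.6 and 35.4 TPM in replicates 1, 2 and 3, a mean of 43.0 ± 6.56 TPM (SD, n = 3), with replicate 3 apart and low. In TMM-scaled CPM (counts per M, not divided by length) Cnot7 had 74.0, 78.3 and 66.7, with replicate 3 lowest but less apart. Cnot8 (ENSMUSG00000020515.13, chr11:58104153-58118594) had 18.8, 19.9 and 19.2 TPM, a mean of 19.3 ± 0.550 TPM (SD, n = 3). Cnot7 lay above Cnot8 in each library by TPM over all entries, and made up 68.8% ± 3.45 of their sum. The CCR4-type nucleases, Cnot6l and Cnot6, made up 63.5% ± 2.81 of the TPM of the 4 nuclease genes.

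By TPM over all entries, the order from high to low was Pabpc1, Btg1, Cnot1, Cnot6l, Btg2, Cnot7, Tob2, Tob1, Cnot8 and Btg3. Neighbours in this order did not overlap over the 3 libraries, except Tob2 and Tob1. In the second quantification Tob1 overlapped Cnot8, and Cnot8 overlapped Btg3, as well. Over protein-coding entries alone the order was another, from Btg1 (448 TPM) and Pabpc1 (359 TPM) to Btg2 (65.6), Cnot6l (64.0), Cnot1 (31.3), Tob2 (26.2), Tob1 (25.9), Cnot8 (19.1), Cnot7 (16.4) and Btg3 (10.6 TPM). On counts per M per kilobase of all annotated exons, scaled to library totals without TMM, Btg1 (287) and Pabpc1 (191) led as well. Btg2 (65.05 ± 2.68) lay above Cnot1 (21.4 ± 0.589) and Cnot6l (20.2 ± 0.846) on that scale (SD, n = 3 each). Its divisor includes the exons of every annotated entry, which can lower genes with many entries. Cnot1 has 17 entries, Cnot6l 10 and Btg2 1. Of the 10 genes, 9 exceeded 10 TPM in every library and their median was 54.3 TPM, while 56.8% of the 9851 protein-coding genes at 1 TPM or more did so, at a median of 13.55 TPM.

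**Figure D1:**
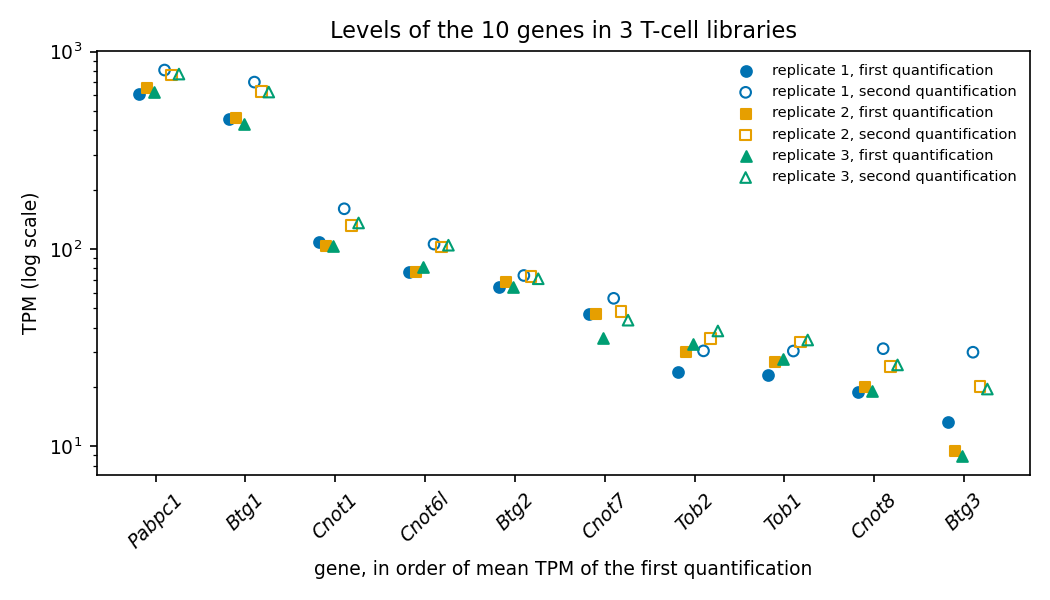
TPM of the 10 genes (log axis) in each of the 3 libraries, with filled symbols for the first and open symbols for the second quantification. Pabpc1 and Btg1 stand above the other genes, and the open symbols of Btg3 lie at 19.5 to 30.0 TPM, above its filled symbols at 8.97 to 13.3 TPM.

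The Btg1 total came from 2 protein-coding entries. Btg1-201 (5001 bases, 2 exons) encodes 171 codons and has a 3′ UTR of 4166 bases, longer than that of 94.8% of 9834 detected protein-coding genes, whose median was 868 bases. Btg1-202 (668 bases) has a first exon of its own at chr10:96617554-96617828, shares the start of exon 2 and has a 3′ UTR of 25 bases. Its start codon lies 225 bases into the coding part of Btg1-201, in the same frame, so it encodes the last 96 codons only. The exon junction that is found in Btg1-201 only and the start of the shorter reading frame are shown, both from the coding part of Btg1-201. The first joins the end of exon 1 (chr10:96617458-96617472) to the start of exon 2 (chr10:96618276-96618290), in capitals. The second, at chr10:96618338-96618367 in exon 2 of both entries, holds the Btg1-202 start codon, in capitals.
Btg1-201 junction: aggagctgctggcagAACATTACAAACATC
Btg1-202 start codon: cgcatcaaccataagATGgatcctctgatt
Btg1-202 received 6.18%, 6.42% and 6.64% of the Btg1 counts in replicates 1, 2 and 3, but 36.25%, 37.2% and 38.0% of its TPM. In the second quantification it received 8.40% ± 0.178 of the counts and 52.4% ± 0.931 of the TPM (SD, n = 3). Btg1-201 thus held 281 ± 13.4 of the Btg1 TPM in the first quantification. The leading entry of Btg1 by TPM was Btg1-201 in the first and Btg1-202 in the second quantification, while by counts Btg1-201 led in both, with 93.6% ± 0.229 in the first and 91.6% ± 0.178 in the second (SD, n = 3).

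Btg2-201 and Tob1-201 were the only entries of their genes. Their 3′ UTRs have 2199 and 767 bases, and that of Tob2-201 has 2457 bases. Tob2-201 held 75.95%, 75.3% and 59.2% of the Tob2 TPM in replicates 1, 2 and 3, and the short coding entry Tob2-204 (615 bases) 13.4%, 14.45% and 31.5%. Replicate 3 stood apart in both, and in CPM, which does not divide by length, Tob2 was highest in replicate 2 (105.1) and not in replicate 3 (98.15). Tob2-202, a retained-intron entry, held 8.795% ± 0.783. Btg3-201 held 87.3% ± 8.39 of the Btg3 TPM, and Btg3-203 and Btg3-202 held 8.67% ± 1.38 and 4.05% ± 7.02, the last listed at 0 in replicates 1 and 2. In the second quantification Btg3-202 had the opposite pattern, with 18.3%, 12.7% and 0% in replicates 1, 2 and 3.

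Much of the Cnot1 and Cnot7 signal was assigned to entries that are not annotated as protein-coding, that is to retained-intron, nonsense-mediated decay and processed transcripts. Such entries held 71.99%, 68.3% and 70.6% of the Cnot1 TPM and 62.8%, 64.3% and 57.2% of the Cnot7 TPM in replicates 1, 2 and 3. By counts, their shares were 50.5% ± 3.22 for Cnot1 and 36.8% ± 3.31 for Cnot7 (SD, n = 3). The leading Cnot1 entry by TPM, Cnot1-216 (7479 bases), is annotated for nonsense-mediated decay and held 10.96% ± 1.16 of the TPM and 23.9% ± 2.77 of the counts. The coding entry with the longest coding part, Cnot1-202, held 9.93% ± 2.16 of the TPM and 24.3% ± 4.82 of the counts, and Cnot1-217, Cnot1-207, Cnot1-201, Cnot1-211, Cnot1-210, Cnot1-213, Cnot1-206, Cnot1-212, Cnot1-209, Cnot1-215, Cnot1-214, Cnot1-205 and Cnot1-203, which reached 5% in either quantification, held 1.75% to 8.14% each in the first. Limited to protein-coding entries, the levels were 31.3 ± 1.49 TPM for Cnot1 and 16.4 ± 1.15 TPM for Cnot7 (SD, n = 3). On the same scale Cnot6l had 64.0 ± 1.60 TPM and Cnot8 19.1 ± 0.244 TPM (SD, n = 3). Cnot1 thus lay below Cnot6l but above Cnot8, and Cnot7 lay below both. A snoRNA gene inside Cnot1 on the same strand, Gm26493, was listed at a mean of 51.4 TPM.

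Cnot7-211, the leading coding entry of Cnot7, held 24.7% ± 2.94 of its TPM, next to the processed transcript Cnot7-210 at 24.3% ± 5.92. In the second quantification Cnot7-210 led with 37.8% ± 6.22. Other Cnot7 entries of at least 5% in one of the quantifications were Cnot7-205, Cnot7-207, Cnot7-201, Cnot7-209, Cnot7-208 and Cnot7-206, with 5.145% to 11.6% in the first. Of these, Cnot7-207 and Cnot7-208 were listed at 0 in the second. In the first quantification Cnot8 was nearly all coding, with Cnot8-201 at 72.9% ± 3.91, Cnot8-204 at 13.85% ± 1.535 and Cnot8-202 at 12.2% ± 3.13 of its TPM, and the processed transcript Cnot8-203 at 1.005% ± 1.74. In the second quantification Cnot8-201 held 45.1% ± 14.5 and Cnot8-203 7.16% ± 7.61 of the TPM, with 15.15% in replicate 1.

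Pabpc1-201, the entry with the longest coding part, held 56.4% ± 2.06 of the Pabpc1 TPM and 79.6% ± 1.43 of its counts. Of its other entries, Pabpc1-207 (13.4% ± 1.295), Pabpc1-204 (9.625% ± 0.967), Pabpc1-202 (6.40% ± 0.635) and Pabpc1-203 (5.40% ± 0.412) reached 5% of the TPM, and none of these is annotated as protein-coding. Entries that are not protein-coding held 42.95% ± 2.35 of its TPM. The Pabpc1 level over coding entries alone was 359 ± 7.55 TPM (SD, n = 3), below Btg1, whose entries are all coding, at 448 ± 16.0 TPM.

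The quantifications differed over the short entries of Cnot6l. Cnot6l-207, a coding entry of 329 bases, held 29.3%, 26.02% and 28.2% of the Cnot6l TPM in replicates 1, 2 and 3 of the first quantification and was listed at 0 in the second, where Cnot6l-204 (526 bases) led with 25.3% ± 7.18. The longest entry, Cnot6l-210 (8564 bases), held 19.5% ± 2.265 of the TPM and 63.6% ± 2.23 of the counts. The Cnot6l level of 64.0 TPM over protein-coding entries thus includes short entries. Cnot6l-207 held 21.8 ± 1.59 TPM of it and Cnot6l-206 (421 bases) 10.3 ± 3.425 TPM (SD, n = 3). Cnot6l-206, Cnot6l-203, Cnot6l-205, Cnot6l-202, Cnot6l-208 and Cnot6l-201 held 5.595% to 13.1% each.

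**Figure D2:**
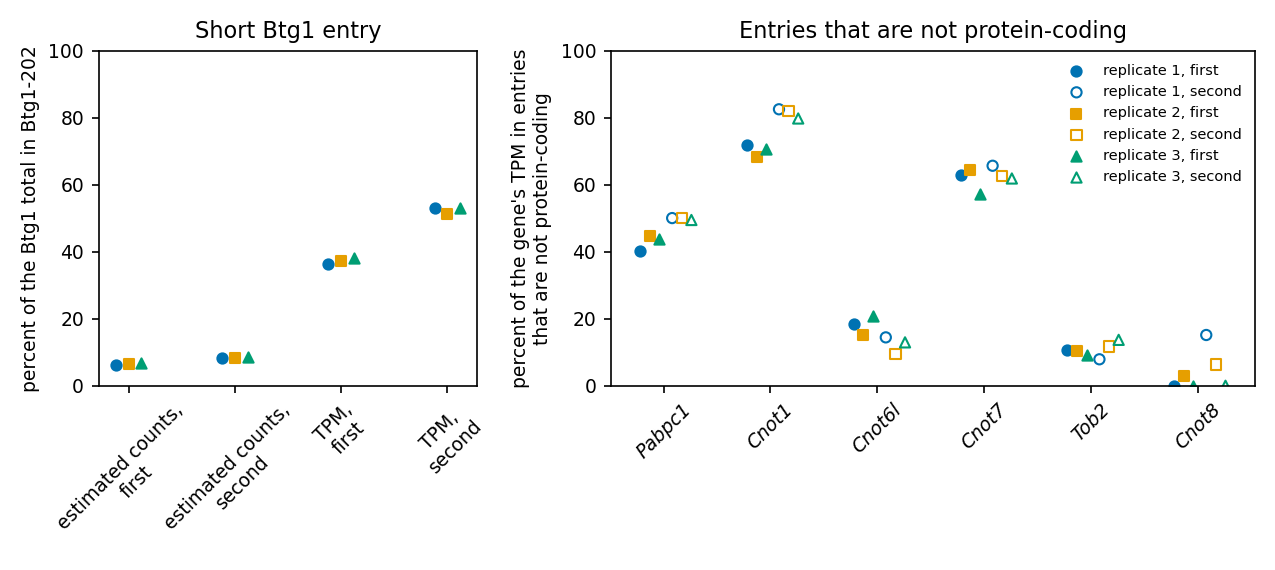
Left, percent of the Btg1 estimated counts and TPM given to the 668-base entry Btg1-202 in each library. Right, percent of each gene's TPM in entries not annotated as protein-coding, for the 6 genes that have such entries. Btg1-202 lies below 10% of counts but at 36.25% to 53.0% of TPM, and Cnot1 and Cnot7 lie above 50% in all libraries and both quantifications.

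Paralogs were compared within each library as differences of log2(TPM + 1), which slightly understates folds of low genes. Btg1 exceeded Btg2 by 2.81, 2.73 and 2.73 in replicates 1, 2 and 3, a mean of 2.75 ± 0.046 (SD, n = 3) or 6.74-fold. All 3 libraries showed this direction, with a spread far smaller than the difference. An exact permutation test that flips signs (two-sided) gave p = 0.25, the smallest value that 3 libraries can give, and 0.25 after Benjamini-Hochberg adjustment over 5 such ratios, and the same values held for each ratio below. On counts per kilobase of all annotated exons of a gene, a scale with no assignment to entries, Btg1 exceeded Btg2 by 2.13 ± 0.061, or 4.37-fold. That scale also divides by exons of entries with few counts, which can lower genes with many entries.

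Pabpc1 exceeded Pabpc4 by 4.48, 4.53 and 4.34, a mean of 4.45 ± 0.099 (SD, n = 3) or 21.9-fold, and by 3.36 on the exon scale. Cnot6l exceeded Cnot6, at 30.5, 30.9 and 28.04 TPM, by 1.30, 1.29 and 1.51 on the log2 scale, a mean of 1.36 ± 0.12 (SD, n = 3) or 2.57-fold. On the exon scale this difference was 0.33, or 1.26-fold. These differences were positive on every scale tried, although their sizes were not the same.

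The other pairs had no stable order. Cnot7 exceeded Cnot8 by 1.27, 1.19 and 0.85 in replicates 1, 2 and 3, a mean of 1.10 ± 0.22 (SD, n = 3) or 2.15-fold, but over protein-coding entries the difference was -0.21 ± 0.11 and on the exon scale -0.067 ± 0.13. Tob1 differed from Tob2 by -0.063, -0.16 and -0.24, a mean of -0.16 ± 0.091 (SD, n = 3), while the difference was -0.0081 ± 0.10 over protein-coding entries and 0.81 ± 0.085 on the exon scale. The sign of neither difference was the same on every scale tried.

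**Figure D3:**
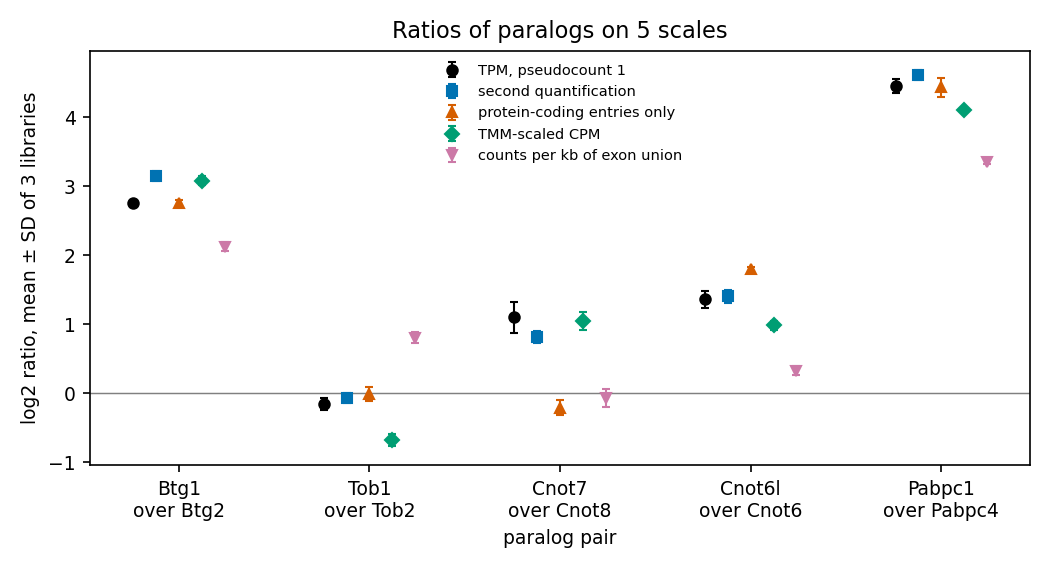
Mean log2 ratio of 5 paralog pairs over 3 libraries, with error bars of 1 SD, on 5 scales. Btg1 over Btg2, Cnot6l over Cnot6 and Pabpc1 over Pabpc4 lie above 0 on all 5 scales, from 0.33 to 4.62, while Cnot7 over Cnot8 (-0.21 to 1.10) and Tob1 over Tob2 (-0.68 to 0.81) lie on both sides of 0.

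With 1 group, the comparison left was whether a gene varied between libraries more than genes of its abundance do. In edgeR, quasi-likelihood dispersions were compared with their trend over abundance (F test), with Benjamini-Hochberg adjustment over 13280 genes at 0.05. None of the 10 genes passed, and 75 of all tested genes did, which is 0.565%. DESeq2 marked 0 of the 10 as dispersion outliers, against 0.941% of all genes. At an unadjusted p under 0.05, 3 of 10 passed, Btg3, Tob1 and Tob2, and the share over all genes was 5.69%. The median ratio of a gene's dispersion to the trend was 1.57 for the 10 genes and 0.736 for all tested genes. The median coefficient of variation of TMM-scaled CPM, which is not adjusted for abundance, was 4.83% for the 10 genes and 7.47% for all tested genes.

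Tob2 had 80.1, 105.1 and 98.15 CPM in replicates 1, 2 and 3, a dispersion 10.1 times the trend (edgeR unadjusted p = 0.00274, adjusted p = 0.224). Tob1 had 49.8, 61.0 and 64.6 CPM, a dispersion 7.38 times the trend (edgeR unadjusted p = 0.00834, adjusted p = 0.448). Replicate 1 was lowest for both, and without it their unadjusted edgeR p-values were 0.283 and 0.407. They were 0.00631 and 0.00262 without replicate 2, and 0.000899 and 0.0158 without replicate 3. Btg3 had 19.0, 14.2 and 12.9 CPM (edgeR unadjusted p = 0.025, adjusted p = 0.734), with replicate 1 highest. Its unadjusted edgeR p was 0.144 by the second quantification. It was 0.525, 0.00822 and 0.0357 without replicate 1, 2 and 3. For all 3 genes replicate 1 was the most distant library, so that leaving it out lowers the spread by construction. The edgeR adjusted p of the other 7 genes was 0.976 or above, and Btg1 lay below the trend, at 0.528 times its value.

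Other genes also differed between the libraries. The immediate-early genes Fos (136.3, 185.7 and 227.0 CPM), Fosb (110.9, 143.2 and 165.8 CPM) and Egr1 (56.2, 84.5 and 71.7 CPM) were lowest in replicate 1, as Tob1 and Tob2 were. These 3 of the 10 immediate-early genes passed the edgeR test. The list as a whole was mixed, by TPM, with 5 of 10 genes lowest in replicate 1 and 5 of 10 in replicate 3, and 8 of 10 highest in replicate 2. Its summed level was 885.5, 1030 and 918 TPM in replicates 1, 2 and 3. Being lowest in replicate 1 was not particular to immediate-early genes. In CPM it also held for Btg2, Pabpc1 and Cnot8 (0.945, 0.953 and 0.950 of their means). By TPM it held for 5 of 19 decapping and decay genes and 1 of 10 T-cell genes. Cycling genes were highest in replicate 1, as Btg3 was, in 8 of 8 cases. Their summed level was 35.1, 23.2 and 14.7 TPM, and Mki67 and Top2a passed. Being highest in replicate 1 by TPM was not particular to cycling genes. It also held for 7 of 10 T-cell, 6 of 8 monocyte and macrophage, 4 of 4 natural killer and 7 of 9 other deadenylase genes. Among B-cell and erythroid genes it held for 1 of 8 and 1 of 6. B-cell genes summed to 15.5, 20.5 and 11.75 TPM, 7 of 8 being highest in replicate 2. Erythroid genes summed to 54.2, 96.9 and 42.6 TPM, and 1 of 6, the hemoglobin gene Hba-a2 (11.5, 26.1 and 8.10 TPM), passed the edgeR test. The part of these genes in the values of Tob1, Tob2 and Btg3 was not tested.

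**Figure D4:**
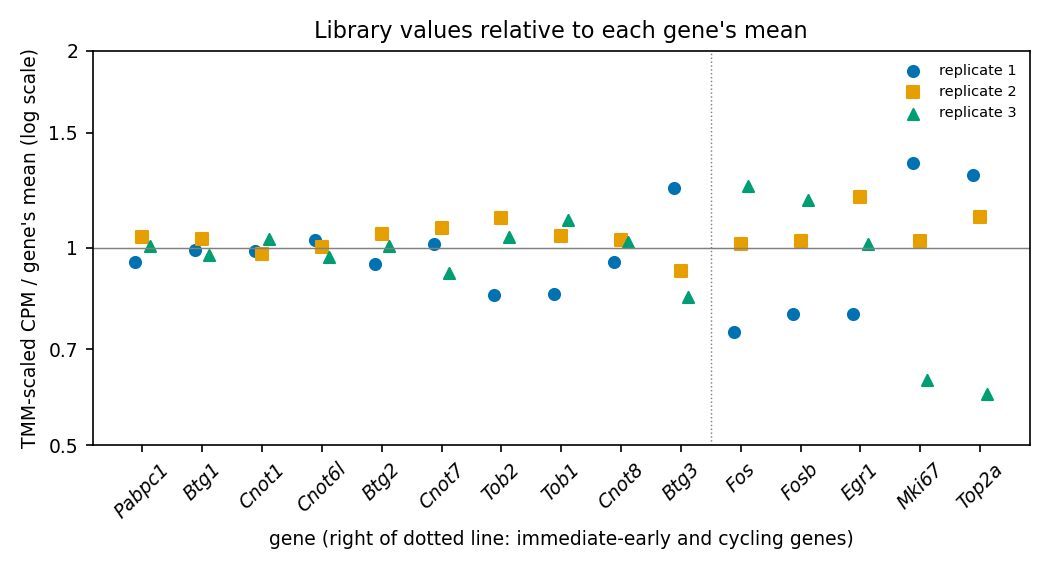
TMM-scaled CPM of each gene in each library divided by the gene's mean over the 3 libraries (log axis), for the 10 genes and, right of the dotted line, 3 immediate-early and 2 cycling genes. Replicate 1 lies low for Tob1 and Tob2 (0.852 and 0.848) as for Fos (0.745), and high for Btg3 (1.235) as for Mki67 (1.35). It is also the lowest library for Btg2 (0.945), Pabpc1 (0.953) and Cnot8 (0.950).

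Other genes of the deadenylation pathway were described from 5 lists of 65 genes in all. Of these, 57 were tested for spread with edgeR. None passed, against 0.565% of all tested genes, 0 had an unadjusted p under 0.05, against 5.69%, and 0 were dispersion outliers in DESeq2, against 0.941%. Of the 7 remaining CCR4-NOT genes, 5 exceeded or reached 10 TPM in every library, at a median of 21.2 TPM. The highest were Cnot3 (42.2 ± 5.58 TPM) and Cnot2 (35.4 ± 2.11 TPM), which form a regulatory module, and Cnot6 (29.8 ± 1.56 TPM), and the lowest were Cnot9 (10.5 ± 0.575 TPM) and Cnot11 (9.93 ± 0.917 TPM).

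Of 9 other deadenylase genes, 5 exceeded 10 TPM in every library. By TPM over all entries Pan3, the regulatory subunit of the PAN2-PAN3 deadenylase, had 117 ± 6.74 TPM, above every nuclease gene of CCR4-NOT. The comparison was not made over protein-coding entries alone. Angel2 and Toe1 had 22.2 ± 2.25 and 22.2 ± 1.68 TPM. Noct and Pnldc1 were lowest at 2.90 ± 0.329 and 0.587 ± 0.360 TPM. Of 15 other poly(A) binding proteins and partners, 9 exceeded 10 TPM, led by the nuclear poly(A) binding protein Pabpn1 (98.2 ± 5.47 TPM), the Pabpc1 inhibitor Paip2 (65.0 ± 1.955 TPM) and Larp1 (39.9 ± 2.00 TPM).

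Decapping and decay from the 5′ end, the steps that follow loss of the tail, were represented by 19 genes, of which 15 exceeded 10 TPM in every library at a median of 17.8 TPM. Ddx6, a helicase that contacts Cnot1 protein, had 74.4 ± 2.865 TPM, Lsm14a 61.6 ± 7.46 TPM and Lsm4 40.8 ± 5.92 TPM, and Lsm1 (9.46 ± 1.39 TPM) and Edc3 (7.83 ± 0.508 TPM) were lowest. Among 15 other adaptors that recruit deadenylases, 10 exceeded 10 TPM in every library, and the highest were Pum2 (92.9 ± 8.001 TPM), Tnrc6b (89.3 ± 6.34 TPM) and Ago2 (56.6 ± 5.82 TPM). Samd4 had 0.203 ± 0.205 TPM, and Cpeb1 was listed at 0. Btg1, at 448 TPM, was higher than each of these 15 adaptor genes in every library.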

How the data were processed

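Total RNA-seq of 1 group of 3 libraries was analysed. Per the file headers, the deposited gene and transcript tables hold estimated counts, TPM and FPKM, with posterior means and SDs. The deposited second quantification holds estimated counts and TPM per transcript entry, summed here per gene. Both use mm10 with GENCODE M21, per the README files deposited by the authors. Which aligner and quantifiers made them is not given in the sources used here. Reads were assigned to one reference genome, and parental alleles were not analysed here. Libraries held 16.88 M, 14.99 M and 16.2 M estimated counts. In the gene table, 26248 entries named by a number only were left out.

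The members and lists were chosen with earlier results of these data known. All 10 genes are named, with the 3 highest and 2 lowest genes of each list, Cnot6, Pabpc4, list genes that passed the spread test, and entries with at least 5% of a gene's TPM in either quantification. Spread was tested on rounded counts of all genes in edgeR 4.0.16 (intercept only, filterByExpr, TMM, robust), with R 4.3.3 and limma 3.58.1, and the script was tested on simulated data. DESeq2 1.42.0 was an alternative. Ratios used log2(TPM + 1) and an exact sign-flip permutation test in Python 3.11.15 (numpy 2.4.6, pandas 2.3.3, scipy 1.17.1). Coding parts were taken from the coding entry with the longest coding sequence. Floors of 3 counts cover counting error only, since PCR copies are not independent molecules. As alternatives, values came from the second quantification, CPM, FPKM, posterior mean TPM or coding entries only, with a pseudocount of 0.1, other filters and normalizations, each replicate left out and, added after the data were seen, counts per kilobase of exon union.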

Additional observations from a re-analysis of the deposited data

How the results depend on the processing

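Of 50 alternative values of the 5 paralog ratios, 47 kept their direction, but many of these could hardly differ. FPKM is proportional to TPM within a library, leaving out a replicate reuses values of 1 sign, and all Btg1 and Btg2 entries are coding. The 47 include Tob1 over Tob2 at -0.0081 ± 0.10 (SD, n = 3) over protein-coding entries. The exceptions were Cnot7 over Cnot8, at -0.21 over protein-coding entries and -0.067 per kilobase of exon union, and Tob1 over Tob2, at 0.81 per kilobase of exon union, all on the log2 scale. The cause was not tested. With each replicate left out the ratios ranged from 2.73 to 2.77 for Btg1 over Btg2, -0.20 to -0.11 for Tob1 over Tob2, 1.02 to 1.23 for Cnot7 over Cnot8, 1.29 to 1.40 for Cnot6l over Cnot6 and 4.41 to 4.51 for Pabpc1 over Pabpc4. None of the 10 genes was called for spread in any of 10 settings, in which 0.211% to 0.950% of all tested genes were. At an unadjusted p under 0.05, Tob1 and Tob2 passed in the second quantification and only Cnot7 without replicate 1, against Btg3, Tob1 and Tob2 in the other edgeR settings. Of 30 alternative levels, 15 lay within 1 SD of the level given, and 7 of 10 genes kept their leading entry in the second quantification. No paired analysis was possible because all libraries form 1 group. With 3 libraries, no exact test could go below p = 0.25.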
